A study of Mus musculus with 12 samples.

Results

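The genes that control entry into and passage through G1 were examined in HSCs of WT and *Pon2*-/- mice. They are the Cip/Kip inhibitors *Cdkn1a*, *Cdkn1b* and *Cdkn1c*, the INK4 inhibitors *Cdkn2c* and *Cdkn2d*, the D cyclins *Ccnd1*, *Ccnd2* and *Ccnd3*, and the kinases *Cdk4* and *Cdk6*. The list was set by gene symbol, matched through Ensembl identifiers, and took 10 of the 49585 genes counted. All 10 passed the filter on low counts that left 11848 genes for the comparison of genotypes. *Cdk4*, *Ccnd2* and *Cdkn2d* held the most RNA per length, while the 3 Cip/Kip genes, *Cdkn2c* and *Ccnd1* were low. None of the 10 genes passed the test between genotypes. The smallest p belonged to *Cdkn1c*, whose mean was 14.4 CPM in WT against 7.92 CPM in *Pon2*-/- HSCs, and it did not hold after adjustment over all genes.

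Most adult HSCs rest outside the cell cycle and enter G1 only now and then. Entry is driven by D cyclins, which bind CDK4 or CDK6 and start the phosphorylation of the pocket proteins RB1, RBL1 and RBL2, so that E2F factors are set free. INK4 proteins bind CDK4 and CDK6 directly and keep D cyclins off, while Cip/Kip proteins bind cyclin-CDK complexes as a whole and block CDK2 most of all. Loss of the Cip/Kip protein p57, the product of *Cdkn1c*, is known to disturb the quiescence of HSCs, and p18, the product of *Cdkn2c*, is known to limit their self-renewal. Much of the control of these proteins is exerted on translation, phosphorylation and degradation, which RNA counts do not show.

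WT mice and mice with a gene trap were compared, with 6 mice per genotype aged 10 to 14 weeks. The paper names C57BL/6J next to WT among the mice it housed, and does not state the background of the *Pon2*-/- mice. In *Pon2*-/- mice a β-geo vector flanked by loxP sites sits in intron 2 of *Pon2*. From each mouse, 8 wells of 10 bone marrow cells were sorted as Lin-, Sca1+, ckit+, CD135- and CD150+. The gate holds LT-HSCs and MPP2 cells together, and counts of the wells of a mouse are joined. Fewer cells of one kind and less RNA per cell cannot be told apart in such samples.

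Smart-seq2 libraries, which hold amplified cDNA without strand, gave 12967791 to 24228280 counts per WT library and 14671353 to 23122382 per *Pon2*-/- library. Values are CPM, counts per 1000000 counts of the library after TMM scaling. *Pon2* itself had 56.4 to 202.0 CPM in WT against 1.16 to 33.1 CPM in *Pon2*-/- HSCs. The genotypes did not overlap (two-sided exact permutation test, p = 0.00216, the smallest the design allows), while edgeR gave a log2 fold change of -2.13 with p = 0.586 once adjusted. All 12 HSC markers, among them *Slamf1*, *Kit* and *Procr*, were detected in every library, with sums of 2533 to 3207 CPM in WT against 2370 to 3133 CPM in *Pon2*-/- HSCs. The sum of 9 neutrophil and monocyte markers ran from 878.3 to 9744 CPM in WT and from 830.1 to 14869 CPM in *Pon2*-/- HSCs, and that of 8 B lineage markers from 25.5 to 319.2 CPM and from 58.8 to 741.6 CPM. Of the erythroid markers, *Car1* was at 0 in all libraries, and *Hbb-bt* had 6.11 to 38.1 CPM in WT against 0 to 1.11 CPM in *Pon2*-/- HSCs (edgeR adjusted p = 0.265). The 8 T lineage markers summed to at most 57.7 CPM with *Cd3e*, *Cd8a* and *Trac* at 0, and the 5 macrophage markers to at most 113.2 CPM. The part of these cells in the values below was not tested.

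*Cdk4* (ENSMUSG00000006728.12) encodes the kinase that carried most of the kinase RNA. It lies on chromosome 10 from 127063534 to 127067920 on the plus strand of GRCm38, as annotated in GENCODE release M21. The bases before its start are shown because they hold 4 copies of the E-box CACGTG, a sequence that MYC family and other factors can bind, and because the values of *Mycn* and *Myc* are given further on. The run below is from RefSeq on GRCm38.p6, chr10:127063285-127063533, plus strand, with the E-boxes in capitals.
Cdk4: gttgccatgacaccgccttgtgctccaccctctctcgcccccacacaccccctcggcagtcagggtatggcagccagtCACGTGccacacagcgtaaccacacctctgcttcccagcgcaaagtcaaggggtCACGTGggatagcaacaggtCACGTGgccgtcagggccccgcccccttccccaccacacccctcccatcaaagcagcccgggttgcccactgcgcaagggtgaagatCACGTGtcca
The letters start at positions -172, -118, -98 and -11 from the start site and read the same on both strands. Of 32851 windows of 300 bases around annotated mouse gene starts, 7.15% held at least 1 such E-box and 0.024% held 4 or more. These letters are a description of the window and not evidence of binding.

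*Cdk4* had 755.5 to 1030 CPM in WT HSCs (median 872.1) against 625.4 to 1101 CPM in *Pon2*-/- HSCs (median 931.6). The genotypes overlapped, with the *Pon2*-/- libraries spread on both sides of the WT range, 2 below it and 2 above it. Between genotypes the log2 fold change was -0.0016 (edgeR, standard error 0.16), with a 95% interval of the fold from 0.786 to 1.27 (exact permutation test, p = 0.859). A change of *Cdk4* RNA beyond 1.5 times in either direction thus lies outside that interval. Of its exon bases, 19.7% are shared with *Tspan31* on the opposite strand, and counting without strand cannot assign reads there to one gene.

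*Cdk6* (ENSMUSG00000040274.11, chromosome 5, 3341485 to 3531008, plus strand), the second kinase partner of D cyclins, had 132.2 to 196.6 CPM in WT HSCs (median 162.4). In *Pon2*-/- HSCs it had 86.7 to 393.3 CPM (median 135.9). The WT libraries lay close together, while 5 of the 6 *Pon2*-/- libraries lay outside the WT range, 3 below and 2 above. The coefficient of variation was 15% in WT and 65.5% in *Pon2*-/- HSCs. The difference in spread was noticed in the values and was not tested. As a log2 fold change the difference was 0.14 (edgeR, standard error 0.33), with an interval of the fold from 0.67 to 1.81 (exact permutation test, p = 0.853). Without *Pon2*-/- replicate 2, which held the 393.3 CPM, it was -0.25.

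*Ccnd2* (ENSMUSG00000000184.12, chromosome 6, 127125162 to 127152193, minus strand) was the leading D cyclin, the group that links outside signals to CDK4 and CDK6. It had 578.9 to 963.2 CPM in WT HSCs (median 789.6) against 560.3 to 992.6 CPM in *Pon2*-/- HSCs (median 790.2). Both genotypes covered nearly the same range. The log2 fold change was 0.03 (edgeR, standard error 0.16), with an interval of the fold from 0.808 to 1.29 (exact permutation test, p = 0.909).

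*Ccnd3* (ENSMUSG00000034165.16, chromosome 17, 47505051 to 47599691, plus strand), the D cyclin with the second highest level, had 216.7 to 293.9 CPM in WT HSCs (median 273.8). In *Pon2*-/- HSCs it had 229.9 to 492.6 CPM (median 277.6). *Pon2*-/- replicate 5 stood apart with 492.6 CPM, and the next *Pon2*-/- library had 300.2 CPM. Between genotypes the log2 fold change was 0.22 (edgeR, standard error 0.18), with an interval of the fold from 0.892 to 1.53 (exact permutation test, p = 0.361). It was 0.04 without replicate 5. A processed pseudogene, *Ccnd3-ps*, is 96.64% identical over 415 bases but held only 20 counts in all libraries, against 63391 for *Ccnd3*.

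*Ccnd1* (ENSMUSG00000070348.5, chromosome 7, 144929931 to 144939925, minus strand), the D cyclin best known from epithelial cells, was low. Its WT values were 0 to 42.5 CPM (median 24.8), and its *Pon2*-/- values were 7.63 to 42.9 CPM (median 19.8). WT replicate 1 held no count of *Ccnd1*, which allows at most 0.127 CPM there (3 counts), while the other WT libraries had 17.4 CPM or more. This limit covers counting error only, since amplified reads are not independent molecules. As a log2 fold change the difference was -0.18 (edgeR, standard error 0.99), and the interval of the fold, 0.202 to 3.86, was too wide to exclude a change in either direction (exact permutation test, p = 0.877). *LTO1* on the opposite strand shares 23.4% of the exon bases of *Ccnd1*.

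**Figure D1:**
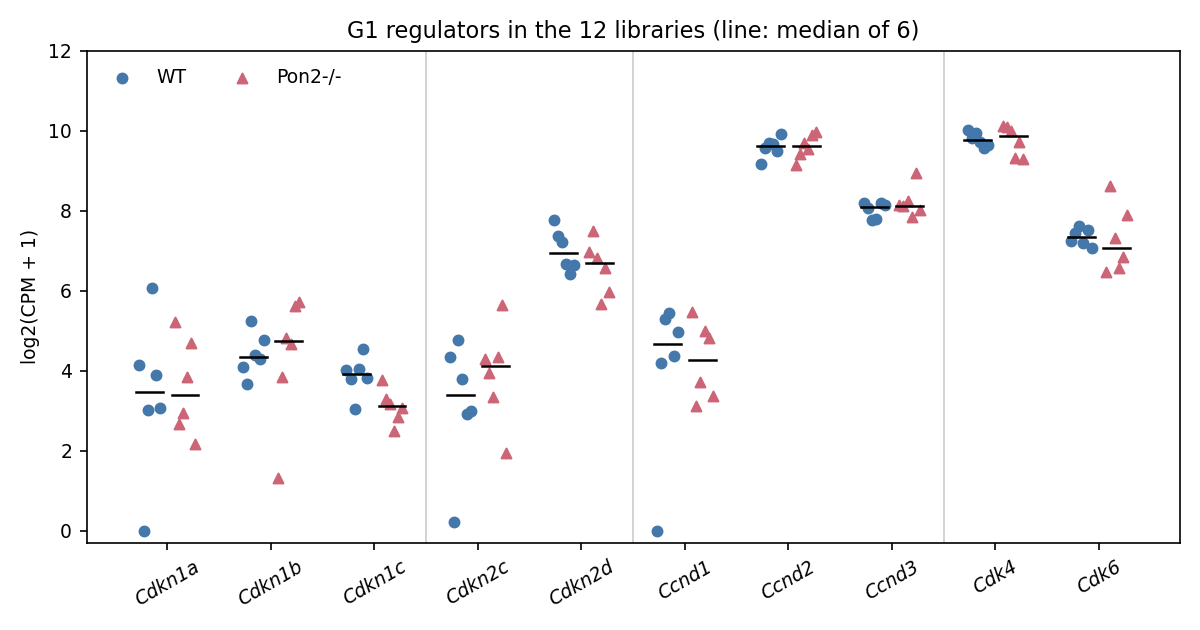
Level of each of the 10 genes in each library as log2(CPM + 1), with WT as circles, *Pon2*-/- as triangles and the median of 6 as a line. *Cdk4*, *Ccnd2* and *Ccnd3* form tight groups, whereas *Cdkn1a*, *Cdkn2c* and *Ccnd1* each have 1 WT library at or near 0 CPM.

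*Cdkn2d* (ENSMUSG00000096472.2, chromosome 9, 21288410 to 21291407, minus strand) encodes p19, an INK4 inhibitor, and was the highest of the inhibitors in both genotypes. It had 83.7 to 215.8 CPM in WT HSCs (median 124.2) against 50.1 to 178.9 CPM in *Pon2*-/- HSCs (median 103.3). The ranges overlapped, with 2 *Pon2*-/- libraries below all WT libraries. The log2 fold change was -0.39 (edgeR, standard error 0.32), with an interval of the fold from 0.473 to 1.24 (exact permutation test, p = 0.245).

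*Cdkn2c* (ENSMUSG00000028551.14, chromosome 4, 109660876 to 109667189, minus strand), the other INK4 gene with counts, had 0.158 to 26.3 CPM in WT HSCs (median 9.89). In *Pon2*-/- HSCs it had 2.82 to 49 CPM (median 16.4). The lowest value, in WT replicate 2, rested on 3 counts, and the highest, in *Pon2*-/- replicate 5, on 1059. Between genotypes the log2 fold change was 0.65 (edgeR, standard error 0.94), with an interval of the fold from 0.389 to 6.34 (exact permutation test, p = 0.42). Without *Pon2*-/- replicate 5 it was 0.09. *Cdkn2a* and *Cdkn2b*, the INK4 genes linked to senescence and ageing, had 0 counts in all 12 libraries, which allows at most 0.121 to 0.235 CPM per library.

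*Cdkn1c* had the smallest p among the 10 genes in both tests. It (ENSMUSG00000037664.13) encodes p57, is expressed from the maternal allele of an imprinted domain, and lies on chromosome 7 from 143458339 to 143461050 on the minus strand. WT replicates 1 to 6 had 15.3, 12.9, 7.22, 15.6, 22.1 and 13 CPM. *Pon2*-/- replicates 1 to 6 had 12.7, 8.71, 8.02, 4.58, 6.15 and 7.39 CPM. All WT libraries but replicate 3 lay above all *Pon2*-/- libraries, so the genotypes overlapped through this 1 library. The mean was 14.4 ± 4.85 CPM in WT HSCs (SD, n = 6) against 7.92 ± 2.75 CPM in *Pon2*-/- HSCs (SD, n = 6).

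The fold of *Cdkn1c* was 0.552 (log2 fold change -0.86, standard error 0.63), with an interval from 0.216 to 1.41. The exact permutation test gave p = 0.0216, and 0.746 when adjusted over the tested genes. edgeR gave p = 0.195 with an adjusted p of 1, and DESeq2 gave an adjusted p of 0.294. Leaving out any 1 library kept the permutation p between 0.00433 and 0.0368. *Cdkn1c* was lower in *Pon2*-/- HSCs under all 20 alternatives of the fit and passed an adjusted threshold in none of them. An antisense gene, *Gm44732*, covers 30.7% of its exon bases and had 0 counts. Counting without strand cannot assign reads there to one gene, so these 0 counts do not show that *Gm44732* was silent.

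Values of 3 genes of MPP cells are given beside this result, of which *Flt3* encodes CD135, which the gate excluded. The sum of *Cd48*, *Flt3* and *Cd34* was 221.1 to 449.4 CPM in WT against 341.3 to 650.7 CPM in *Pon2*-/- HSCs, and all 3 genes were higher by sign while none passed the adjusted test. *Cd48*, which is absent from LT-HSCs and present on MPP2 cells, had 1.02 to 72.1 CPM in WT against 61.3 to 205.2 CPM in *Pon2*-/- HSCs (exact permutation test, p = 0.00433, edgeR adjusted p = 1). It was chosen after its values were seen. Whether the cell mixture bears on *Cdkn1c* was not tested.

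*Cdkn1b* (ENSMUSG00000003031.14) encodes p27, which adds to the hold of p57 on HSC quiescence, and lies on chromosome 6 from 134920401 to 134925513 on the plus strand. The bases before its start are shown as the window with the most CCAAT boxes among those found for 7 of the 10 genes, for comparison with *Cdk4*. They are from RefSeq on GRCm38.p6, chr6:134920151-134920400, plus strand, with CCAAT in capitals.
Cdkn1b: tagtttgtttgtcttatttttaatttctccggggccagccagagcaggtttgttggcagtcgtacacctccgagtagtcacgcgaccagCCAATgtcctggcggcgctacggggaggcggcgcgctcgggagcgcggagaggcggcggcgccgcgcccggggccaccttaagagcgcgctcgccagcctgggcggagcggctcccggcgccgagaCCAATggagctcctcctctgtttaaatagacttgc
A further copy follows after the start, making 3 in its window. CCAAT, searched on both strands, was present in 37.4% of all windows and in 4 of the 10 windows found for 7 of the genes. The GC box GGGCGG was present in 35.7% of all windows and in 7 of these 10, with 3 copies at *Cdk4* and 1 at *Cdkn1b*. TATAAA was present in 13.6% of all windows and in 1 of the 10, at *Cdk6*. The *Cdkn1b* window held no CACGTG.

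*Cdkn1b* had 11.7 to 36.6 CPM in WT HSCs (median 19.2) against 1.49 to 51.3 CPM in *Pon2*-/- HSCs (median 25.7). The *Pon2*-/- libraries spread wider than the WT libraries at both ends, with 1 below and 2 above them. As a log2 fold change the difference was 0.36 (edgeR, standard error 0.68), with an interval of the fold from 0.47 to 3.52 (exact permutation test, p = 0.913). On the log scale of that test the difference was -0.16, opposite in sign. No other annotated gene shares exon bases with *Cdkn1b*.

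*Cdkn1a* (ENSMUSG00000023067.13, chromosome 17, 29090976 to 29100727, plus strand) encodes p21, the inhibitor that p53 induces after DNA damage. It had 0 to 66.5 CPM in WT HSCs (median 10.5) against 3.48 to 36.2 CPM in *Pon2*-/- HSCs (median 10.1). The medians were close, and the highest and the lowest library were both WT. The log2 fold change was -0.31 (edgeR, standard error 1.14), with an interval of the fold from 0.149 to 4.4 (exact permutation test, p = 0.736). It was 0.74 without WT replicate 4, which held the 66.5 CPM. WT replicate 2 held no count of *Cdkn1a*, which allows at most 0.158 CPM.

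Over the 10 genes, 0 were called by edgeR at an FDR below 0.05 with a fold above 2, where 0.203% of all tested genes were called, 0.127% as higher and 0.076% as lower in *Pon2*-/- HSCs. The adjusted p of edgeR was 1 for each of the 10. At an unadjusted edgeR p below 0.05 the count was 0, against 3.13% of tested genes. DESeq2 also called 0, against 0.626% of the genes tested by edgeR. *Cdkn1c* alone had a DESeq2 p below 0.05 before adjustment, as did 5.37% of those genes. By the permutation test, 1 gene had p below 0.05, against 5.87% of tested genes. In no case did the genotypes separate, as they did for 0.633% of tested genes. By sign, 5 genes were higher and 5 lower in *Pon2*-/- HSCs, and their median log2 fold change was 0.01 where that of all tested genes was -0.009.

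How firmly a change can be bounded differed between the genes. The interval of the fold lay within 1.5 times either way for *Cdk4* and *Ccnd2*, 2 of the 10, against 7.21% of tested genes. The SD of log2 CPM within genotypes was 0.28 to 0.30 for *Cdk4*, *Ccnd2* and *Ccnd3*, 0.51 for *Cdkn1c*, and 1.95 to 2.45 for *Cdkn2c*, *Cdkn1a* and *Ccnd1*. The median over all tested genes was 0.99. The intervals thus bound the change of *Cdk4* and *Ccnd2*, and leave that of *Cdkn1a*, *Cdkn2c* and *Ccnd1* undetermined.

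**Figure D2:**
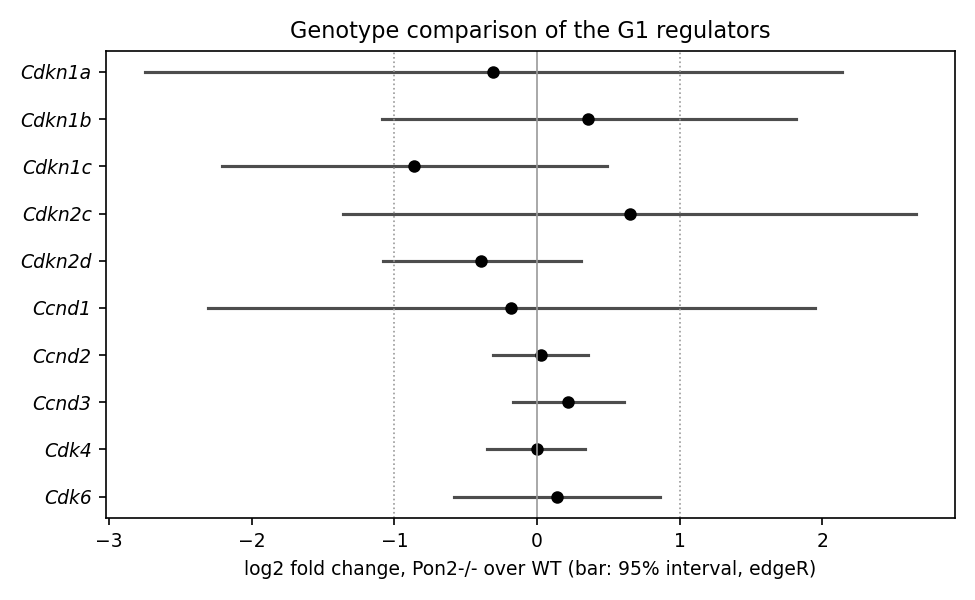
log2 fold change of each gene in *Pon2*-/- over WT HSCs (edgeR, 6 mice per genotype), with bars for the 95% interval and dotted lines at a 2-fold change. All 10 intervals include 0, and those of *Cdk4* (-0.35 to 0.34) and *Ccnd2* (-0.31 to 0.36) are the narrowest.

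Levels of different genes were compared per kb of merged exon length. This length includes exon bases shared with other genes, where reads cannot be assigned to one gene. Levels of *Cdkn1c* (30.7% shared), *Ccnd1* (23.4%) and *Cdk4* (19.7%) may thus be too low. *Cdk4* led with 272.5 ± 50.2 CPM per kb (SD, n = 12), above 98.4% of tested genes. *Ccnd2* followed with 83.5 ± 14.8 CPM per kb and *Cdkn2d* with 75.9 ± 31.3 CPM per kb. *Ccnd2* lay above *Cdkn2d* in only 7 of 12 libraries, so by this length these neighbours did not differ beyond their spread, whereas *Cdk4* lay above *Ccnd2* in all 12. *Ccnd3* had 32.4 ± 8.16 CPM per kb and *Cdk6* had 12.3 ± 5.85 CPM per kb, and each step from *Cdkn2d* to *Ccnd3* and from *Ccnd3* to *Cdk6* was kept in all 12 libraries. *Cdk6* lay above *Cdkn2c*, the next gene, in 9 of 12 libraries, 6 of them WT and 3 *Pon2*-/-.

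The other 5 genes had 5.74 CPM per kb (*Cdkn2c*), 5.46 (*Cdkn1c*), 5.39 (*Cdkn1b*), 4.92 (*Ccnd1*) and 4.71 (*Cdkn1a*). Each neighbour among them lay above the next in 5 to 8 of 12 libraries, and their order is not resolved. *Cdkn1c* ranked 6 of 10 in WT and 10 of 10 in *Pon2*-/- HSCs, *Cdkn2c* the reverse. When the longest annotated transcript was taken as the length, ranks 1 to 5 stayed and *Cdkn1a* moved to rank 6. Under that length *Ccnd2* (124.2 CPM per kb) lay above *Cdkn2d* (84) in 10 of 12 libraries. *Cdkn2d* lay above *Ccnd3* (73.6) in only 7 of 12 libraries, so the step from *Cdkn2d* to *Ccnd3* is not resolved under that length.

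**Figure D3:**
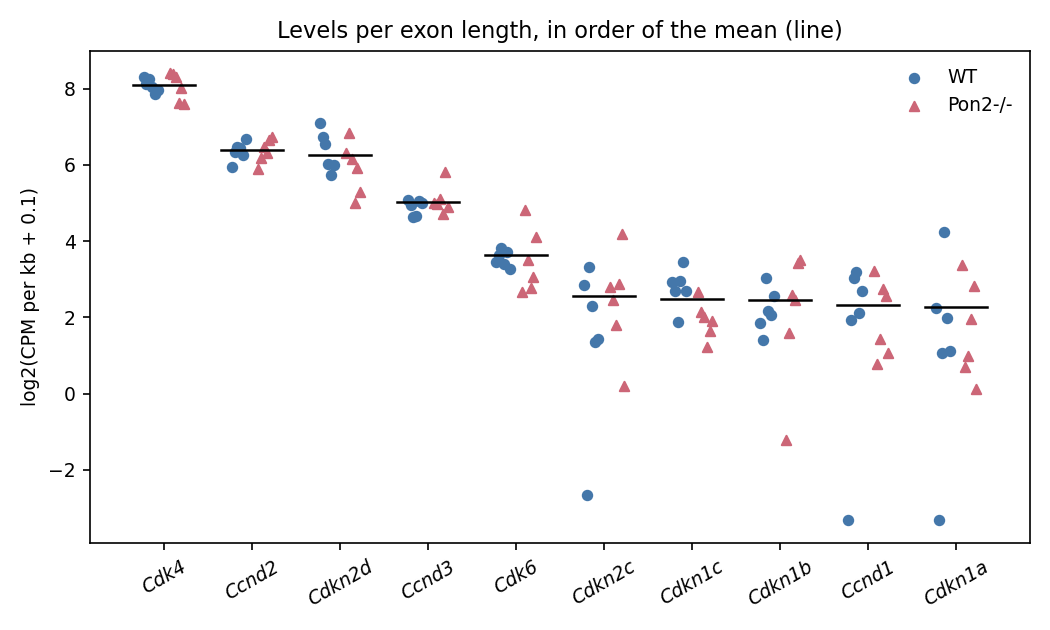
Level per exon length of each gene as log2(CPM per kb + 0.1), in the order of the mean over 12 libraries (line), with WT as circles and *Pon2*-/- as triangles. *Cdk4*, with a mean of 272.5 CPM per kb, stands above all others in every library, and the 5 genes on the right overlap widely.

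Within each family, 1 gene held most of the RNA except among the Cip/Kip inhibitors. *Ccnd2* made up 69.9 ± 3.33% (SD, n = 6) of D cyclin RNA per length in WT and 68.1 ± 6.53% in *Pon2*-/- HSCs, and was the highest D cyclin in all 12 libraries. *Cdk4* made up 95.8 ± 0.714% and 95.4 ± 2.67% of the RNA of both kinases. The ratio of *Cdk4* to *Cdk6* per length had a median of 23.6 in WT (17.8 to 29.4) and 28.7 in *Pon2*-/- HSCs (11.3 to 54.7). *Cdkn2d* made up 95.1 ± 3.16% and 89.8 ± 8.55% of the RNA of *Cdkn2c* and *Cdkn2d*.

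The Cip/Kip family had no constant leader. *Cdkn1c* was highest in 4 of 6 WT and 1 of 6 *Pon2*-/- libraries, and *Cdkn1b* in 1 of 6 WT and 4 of 6 *Pon2*-/- libraries. The ratio of *Cdkn1b* to *Cdkn1c* per length ran from 0.376 to 2.27 in WT (median 0.52) and from 0.0528 to 3.52 in *Pon2*-/- HSCs (median 1.95). The WT range of this ratio lay within the *Pon2*-/- range, and the difference was not tested. By the longest transcript, *Cdkn1a* was highest in 3, *Cdkn1b* in 2 and *Cdkn1c* in 1 of the *Pon2*-/- libraries, while *Cdkn1c* still led in 4 WT libraries.

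**Figure D4:**
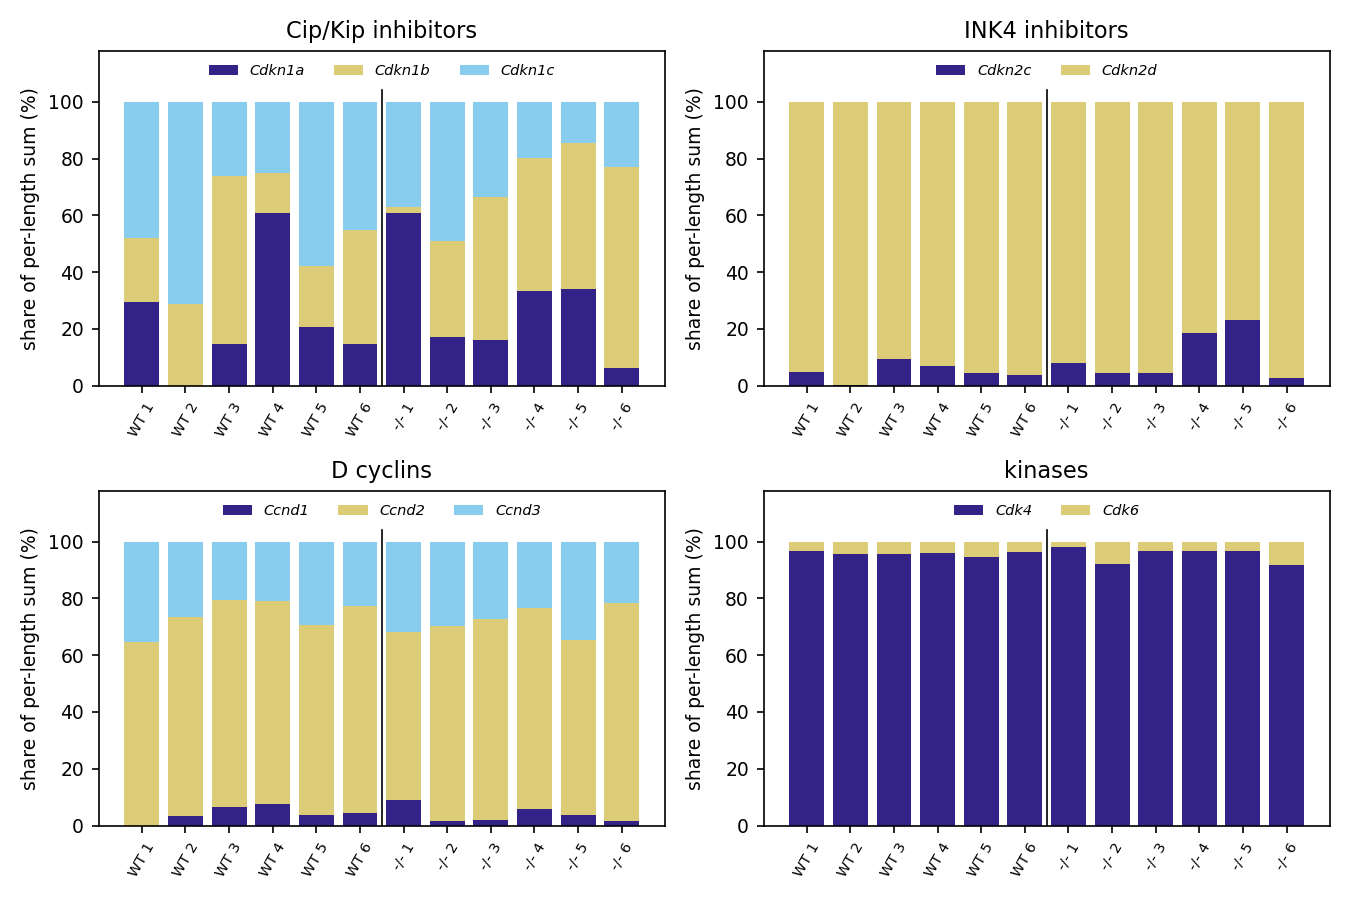
Share of each gene in the per-length sum of its family in each library, in percent, with 6 WT libraries left and 6 *Pon2*-/- libraries right of the line in each panel. *Ccnd2*, *Cdk4* and *Cdkn2d* lead their families in every library, while the leading Cip/Kip gene changes from mouse to mouse.

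Across mice of the same genotype, some of the genes varied together. Over the 45 pairs, the correlation of log2 CPM after subtraction of each genotype mean had a median of 0.04. It was highest for *Cdk4* and *Cdkn2d* (Pearson's r = 0.91, Spearman's rho = 0.93, n = 12 libraries). The value was 0.93 within WT, 0.94 within *Pon2*-/- and 0.87 without the 2 libraries farthest from the median of *Cdk4*. Both genes also followed the depth of the library, with r = 0.61 for *Cdk4* and 0.79 for *Cdkn2d* against the log2 of the total count. Against the share of mitochondrial counts, r was -0.67 and -0.59. These values describe the 12 libraries, whose depth and RNA content the genes share, and the part of either was not tested.

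*Ccnd2* varied with *Cdkn1b* (r = 0.80, rho = 0.83), with 0.53 within WT and 0.94 within *Pon2*-/- (n = 6 libraries each). The difference between these 2 values was not tested. *Ccnd2* varied against *Cdk4* (r = -0.56, rho = -0.54), with -0.48 within WT and -0.61 within *Pon2*-/-. *Cdkn1b* and *Cdkn1c* gave the lowest value of all pairs (r = -0.61, rho = -0.61), with -0.59 within WT and -0.75 within *Pon2*-/-. Among 11847 other tested genes, those most like *Cdk4* were *Arhgdib* (r = 0.961), *Bag2* (0.941) and *Tpi1* (0.927). Those most like *Cdkn2d* were *Oaz1-ps* (0.944), *Ythdf2* (0.941) and *Arf1* (0.918), and those most like *Ccnd2* were *Gm10060* (0.939), *Slirp* (0.913) and *Zfand3* (0.891). *Oaz1-ps* and *Gm10060* were low, with means of 4.23 and 10.1 CPM. These are the highest of 11847 values from 12 libraries each, and whether they exceed chance was not tested.

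Genes that act with the 10 were taken from further lists, and edgeR called none in any of them. Among upstream regulators, 3 of 13 tested genes had an unadjusted edgeR p below 0.05, against 3.13% of all tested genes. They were *Mycn*, *Foxo4* and *Trp53*. The exact permutation test gave them p = 0.00433, 0.00649 and 0.00433, each smaller than that of *Cdkn1c* (0.0216). Adjusted over the tested genes, these were 0.446, 0.538 and 0.446. *Mycn*, a MYC family factor that drives growth and cell cycle genes, had 218.3 ± 110 CPM in WT against 105.9 ± 20.4 CPM in *Pon2*-/- HSCs (SD, n = 6, log2 fold change -1.04, edgeR adjusted p = 0.716). *Myc*, its more abundant relative, had 594.3 ± 231.8 CPM and 670.6 ± 222.3 CPM in the same order (edgeR adjusted p = 1). *Cdk4*, whose window holds the 4 E-boxes, differed by -0.0016 on the log2 scale. Whether *Mycn* or *Myc* bears on *Cdk4* in these cells was not tested.

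*Foxo4*, of the FOXO factors that can induce *Cdkn1b*, was low, with at most 10.7 CPM in WT against 1.26 CPM in *Pon2*-/- HSCs (edgeR adjusted p = 0.889). *Trp53* had 505.3 ± 60.2 CPM in WT against 609.4 ± 30.3 CPM in *Pon2*-/- HSCs (SD, n = 6, log2 fold change 0.27, edgeR adjusted p = 1). Among its targets beside *Cdkn1a*, 3 of 7 tested genes were higher and 4 lower by sign, with *Mdm2* counted here and among the upstream regulators. Of these, *Ccng1* had a log2 fold change of -0.75, *Aen* of -0.43 and *Bax* of 0.20, with an adjusted p of 1 for each.

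Downstream of D cyclins, 7 of 13 pocket protein and E2F genes were higher and 6 lower by sign, with a median log2 fold change of 0.10. *Rb1* had 18.6 ± 16.4 CPM in WT against 5.58 ± 6.84 CPM in *Pon2*-/- HSCs (SD, n = 6, edgeR adjusted p = 1), *Rbl1* had 41.7 ± 23.7 and 79.2 ± 52.6 CPM, and *Rbl2* had 75.5 ± 20.4 and 99.1 ± 35 CPM, with WT first. None of these passed the test. Of the cyclin E and CDK2 genes, which act after D cyclins, 1 of 4 was higher by sign. *Cdk2* itself had 147.9 ± 65.5 CPM in WT against 168 ± 61.2 CPM in *Pon2*-/- HSCs (edgeR adjusted p = 1), while the log2 fold changes of *Ccne1* and *Ccne2* were -0.23 and -0.26.

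The CDK-activating kinase genes *Cdk7*, *Ccnh* and *Mnat1* had log2 fold changes of 0.19, -0.02 and 0.32, each with an adjusted p of 1. Genes of p27 turnover gave 4 of 5 higher by sign with a median of 0.22, among them *Skp2* (1.39) and *Fbxw7* (1.31), each at 0 CPM in at least 1 library of each genotype, and *Cul1* (0.22). *Cdkn3*, a phosphatase of CDKs, had a log2 fold change of -0.47. The 22 genes of S phase and G2/M, which mark cycling cells, were 10 higher and 12 lower by sign with a median of -0.06. *Mcm5*, a part of the replicative helicase, was the only one of them with an unadjusted edgeR p below 0.05, against 3.13% of all tested genes. It had 166.7 ± 42.6 CPM in WT against 242.2 ± 73.7 CPM in *Pon2*-/- HSCs (SD, n = 6, edgeR adjusted p = 1). *Mki67* had a log2 fold change of 0.71 and *Mcm4* of 0.62, neither past the test.

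Of 11 listed genes from the region around *Cdkn1c*, 8 were tested, of which 2 were higher and 6 lower by sign with a median of -0.13. The list reaches beyond the imprinted domain of *Cdkn1c* itself, and *Igf2* lies outside that domain. *Cd81* had a log2 fold change of -0.22, *Nap1l4* of -0.18 and *Igf2*, at no more than 13.4 CPM in any library, of -2.23. None passed the adjusted test, and *Cdkn1c* lay at -0.86 beside them. The exact permutation test gave p = 0.0238 for *Igf2*, 0.0346 for *Cd81* and 0.229 for *Nap1l4*, beside 0.0216 for *Cdkn1c*. Adjusted over the tested genes, these were 0.746, 0.803, 0.967 and 0.746. Of all tested genes, 5.87% had a permutation p below 0.05.

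**Figure D5:**
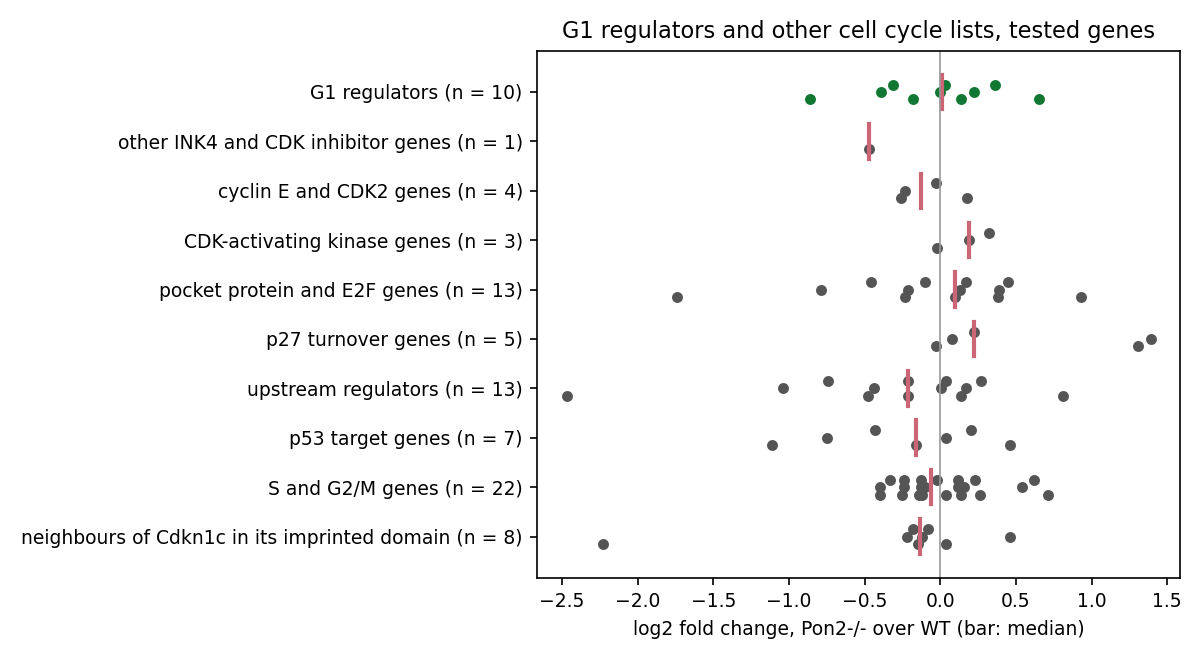
log2 fold change in *Pon2*-/- over WT HSCs (edgeR) of each tested gene in the G1 regulator list and in 9 further lists, with a bar at the median of each list. The 9 lists hold other cell cycle genes and their regulators, and genes from the region around *Cdkn1c*, among them *Igf2*. Most medians lie near 0, and single low genes such as *Foxo4* (-2.47) and *Igf2* (-2.23) lie farthest out, with no gene past the threshold.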

How the data were processed

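RNA-seq counts of HSCs from 6 WT and 6 *Pon2*-/- mice were used, grouped by the sample labels. The authors trimmed Smart-seq2 reads with Trimmomatic 0.36, mapped them to GRCm38.p5 with STAR 2.5.3a and deposited raw counts per gene of GENCODE release M12. Their 1 count column was read as unstranded. Names, positions and lengths came from GENCODE release M21, and promoter windows from RefSeq. The genes and lists were chosen with earlier results of these data known.

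Counts were compared in R 4.3.3 with edgeR 4.0.16 (TMM, filterByExpr, glmQLFit, glmQLFTest, genotype as the only term) over all 12 libraries, with Benjamini-Hochberg adjustment over 11848 genes. A gene was called when its FDR was below 0.05 and its fold above 2 (log2 of 1). Single genes were also compared by a two-sided exact permutation test over all 924 splits of log2 CPM with a prior count of 2. The authors used DESeq2, which was an alternative here (1.42.0), as were limma 3.58.1 voom with quality weights, other size factors and filters, robust estimation, a replicate block and leaving out each library. The procedure was tested on simulated data. Named were the 10 genes, *Pon2*, and the genes of each other list that were called or did not overlap between genotypes. Added to them were the 3 genes with the smallest p of each cell cycle list and of the list around *Cdkn1c*. The 3 genes most like the leading gene of each role were named too. *Myc*, *Mdm2*, *Cdkn2a*, *Cdkn2b* and the cell type markers named other than *Hbb-bt* fall outside this rule and were named after their values were seen. Similar transcripts were found with minimap2 2.31-r1302. Labels do not say whether mice shared litters or days.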

Additional observations from a re-analysis of the deposited data

Results flagged for a closer look

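In 3 of 20 groups of 6 libraries, 1 library lay far from the others by Dixon's criterion, which chance meets in about 1 in 20 groups. *Cdkn1a* had 66.5 CPM in WT replicate 4, where the next WT library had 16.5 CPM. *Cdkn2c* had 49 CPM in *Pon2*-/- replicate 5, where the next had 19.3 CPM, and *Ccnd3* had 492.6 CPM in the same library, where the next had 300.2 CPM. This library also held the lowest *Pon2* value (1.16 CPM). What sets it apart was not tested.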

How the results depend on the processing

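No alternative called any of the 10 genes, while the count over all genes moved from 24 to 304 with DESeq2, 966 with DESeq2 without Cook's cutoff, 8 with no filter beyond 1 count, 32 with at least 10 counts in every sample of a genotype, 24 with DESeq2's size factors, 23 with limma voom, 22 with robust estimation and 20 to 28 when leaving out each library. Of 200 fold changes of the 10 genes under alternatives, 177 kept their direction and 23 reversed, none of them past the threshold in either setting, and the cause was not tested. With limma voom the log2 fold change was 0.99 for *Cdkn1a*, -0.09 for *Cdkn1b*, 0.94 for *Ccnd1* and -0.09 for *Cdk6*. For *Cdk4* it was 0.01 with DESeq2's size factors, 0.0045 with DESeq2 in both settings and 0.0017 with no filter. Leaving out each library gave -0.79 to 0.74 for *Cdkn1a*, -0.49 to 0.05 for *Ccnd1*, -0.05 to 0.11 for *Ccnd2*, -0.08 to 0.08 for *Cdk4* and -0.25 to 0.28 for *Cdk6*, and -1.04 to -0.70 for *Cdkn1c*. DESeq2 gave 1 of the 10 genes an unadjusted p below 0.05, with and without Cook's cutoff, against 5.37% and 5.39% of the genes tested by edgeR. It was run on all genes with counts, and 74 of its 304 calls were among the genes tested by edgeR.

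With a replicate block, 0 of the 10 genes and 5 of all genes were called, and the log2 fold change was 0.41 for *Cdkn1a*, -0.02 for *Cdkn1b* and -0.08 for *Cdk6*. No pairing by replicate number was seen in the values. Same-numbered libraries correlated at 0.000932 to 0.043 in their deviations from the genotype means, and 1 of 6 correlated best with its own number. Whether the mice were paired by litter or day cannot be told from this. The biological coefficient of variation over all genes was 99.2%, and the intervals of the low genes are wide.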
